A study of Mus musculus with 4 samples.

Results

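The genes described here are 10 AP-1 and Egr immediate early genes, Fos, Fosb, Jun, Junb, Jund, Egr1, Atf3, Ier2, Btg2 and Fosl2, of the 32285 genes in the deposited count matrices, and all 10 were found in each of the 4 matrices. They were chosen by name, with their values in these libraries already known, so their levels and ratios are given as a description with no test. Single-cell RNA was measured in the renal cortex of male mice in 4 groups with 1 library each: young (6 weeks) and aged (24 months) Tfeb fl/fl mice, and young and aged Tfeb fl/fl KAP mice. All 4 groups carry the floxed Tfeb allele, and the KAP groups also carry a Cre driven by the androgen-inducible kidney androgen-regulated protein promoter, which is known to act almost only in S3 cells of the proximal tubule. Values come in the order young, young KAP, aged and aged KAP, where a library named without KAP is from Tfeb fl/fl mice with no Cre.

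Cortex of 2 or 3 mice was pooled in each library, so a difference between groups cannot be told apart from a difference between the mice, the dissociation or the run of that library. Kidneys were perfused with saline, minced and digested for 30 minutes at 37 °C before the cells were captured. Cells are not replicates, and intervals are 95% exact Poisson intervals for a level and exact binomial intervals for a ratio, which cover counting error only. Tfeb itself, counted from its 3′ end, was at 6.65, 4.51, 5.07 and 2.30 CPM (counts scaled to a class total of 1000000) in S3-like cells, from 180, 104, 140 and 56 unique molecular identifiers (UMIs). In S1/S2-like cells, it was at 8.89, 8.91, 9.35 and 7.57 CPM. Which exons are floxed was not known from the sources at hand, so these counts need not fall in the deleted part.

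Immediate early genes are transcribed within minutes of a signal, from factors already present in the cell, and most of their transcripts are short-lived. Fos, Fosb and Fosl2 encode Fos proteins, which pair with the Jun proteins encoded by Jun, Junb and Jund to form the transcription factor AP-1, and Atf3 encodes a related factor induced by stress. Egr1 encodes a zinc finger factor, Ier2 a nuclear protein induced by growth factors and Btg2 an antiproliferative protein. Enzymatic dissociation of tissue at warm temperature is known to induce these genes, so in dissociated kidney their level is commonly read as a mark of handling as well as of the state of the tissue.

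After filters, 10045, 7895, 5704 and 6547 cells were kept, with a median of 12203, 12352, 14739.5 and 11810 UMIs per cell. Cells were clustered again without these 10 genes among the variable genes, and each of 37 clusters was named only from fixed markers, or left unnamed, so class names are written as "-like". Of the classes, 15 held at least 20 cells in every library: S1/S2-like, S3-like and unsegmented proximal tubule-like (PT) cells, thick ascending limb of the loop of Henle (LOH), distal convoluted tubule (DCT), connecting tubule (CNT), principal cell (PC), type A and type B intercalated cell (ICA and ICB), glomerular endothelial (gEC), extraglomerular endothelial (Endo), podocyte (Podo), mesangial (Mes), smooth muscle and myeloid-like cells. The aged libraries were small in some of them, with 36 and 47 smooth muscle-like cells and 48 and 74 Podo-like cells. A further class entered where both libraries of a comparison held at least 20 cells, B cell-like cells against the aged KAP library and proliferating-like cells between the young libraries. Any pair of libraries shared between 27 and 57 cell barcodes.

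The members lie on several chromosomes of the mouse genome (build GRCm38), and Junb and Ier2 are the nearest to each other. Fos is at chr12:85473890-85477273 on the plus strand, Jun at chr4:95049034-95052222 on the minus strand and Fosb at chr7:19302696-19310051 on the minus strand. Junb (chr8:84974484-84978718, minus), Jund (chr8:70698949-70700616, plus) and Ier2 (chr8:84661331-84662852, minus) share a chromosome, as do Atf3 (chr1:191170296-191218039, minus) and Btg2 (chr1:134075170-134079120, minus), and Fosl2 is at chr5:32135801-32157842 on the plus strand.

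The 250 bases before the RefSeq start of 8 of the members were searched on both strands. The letters TGACG or CGTCA, the core that CREB and ATF factors are known to bind, were in 5 of the 8, beside 17.8% of 32851 such stretches over all genes. They are printed here with the match in capitals, from RefSeq on GRCm38.p6, each read 5′ to 3′ on the strand of its gene. The start that RefSeq's table uses for Atf3 lies inside the span given for that gene, so its stretch precedes another transcript start than the outermost one.
Fos, chr12:85473741-85473848, plus: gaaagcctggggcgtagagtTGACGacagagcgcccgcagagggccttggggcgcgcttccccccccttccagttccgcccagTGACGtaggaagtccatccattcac
Fosb, chr7:19310081-19310125, minus: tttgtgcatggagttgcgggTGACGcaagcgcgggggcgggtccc
Junb, chr8:84978830-84978874, minus: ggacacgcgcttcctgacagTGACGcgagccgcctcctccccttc
Atf3, chr1:191183334-191183360, minus: ggaagctattaatagcattaCGTCAgc
Btg2, chr1:134079294-134079341, minus: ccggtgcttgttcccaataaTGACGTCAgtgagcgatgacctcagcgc
Btg2 alone of the 8 held the full palindrome TGACGTCA, which overlaps the shorter letters and was in 1.55% of all stretches. The AP-1 letters TGAGTCA or TGACTCA, found in 4.46% of all stretches, and the CArG box, found in 1.47%, were in 0 of the 8. The Egr1 letters GCGGGGGCG or GCGTGGGCG were in Fosb and Fosl2, beside 3.06% of all stretches, and TATAAA was in Fos, beside 12.4%. A match is a run of letters and not a measured site, and its part in the ratios between libraries was not tested. Egr1 and Ier2 were not searched, and letters further than 250 bases upstream would be missed. So a count of 0 does not mean that these genes lack such a site.

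The 10 genes together were lowest in unsegmented PT-like and next lowest in S3-like cells in each of the 4 libraries, and by median over libraries they were highest in gEC-like cells. Their summed level in S3-like cells was 1773, 1649, 2115 and 1511 CPM, and in unsegmented PT-like cells it was 1083, 1105, 1274 and 630.0 CPM. S1/S2-like cells held 3723, 3046, 3884 and 3074 CPM. In gEC-like cells the summed level was 23985, 30075, 18200.4 and 10584 CPM, and in PC-like cells 17691, 19644, 19500.1 and 14989.7 CPM. The distance between the top and the bottom class, 19.3-fold in the median over libraries, was larger than any distance between libraries in 1 class. Most neighbours in the order of classes overlapped over their 4 libraries: for the summed level, 3 of 14 neighbouring pairs did not.

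**Figure D1:**
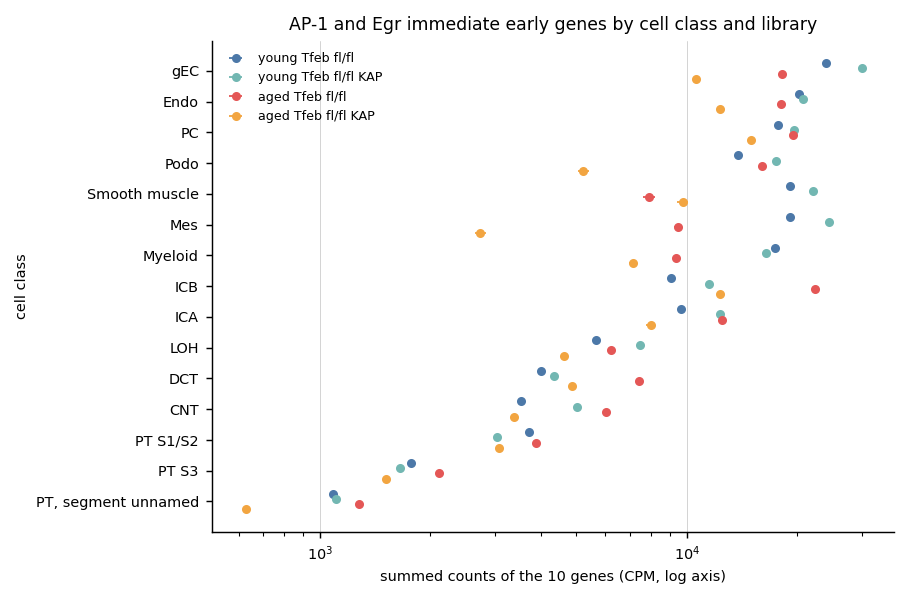
Summed level of the 10 immediate early genes, in CPM on a log axis, for each of the 15 cell classes (rows) in the 4 libraries (coloured points, with 95% exact Poisson bars that are mostly smaller than the points). Unsegmented PT-like and S3-like cells sit at the bottom, and the aged KAP point is the lowest of the 4 in most classes, as in Mes at 2737 CPM against 9446 CPM in aged.

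Among the Fos genes, Fos had its highest median over libraries in PC-like cells, at 4142, 4481, 4484 and 3315 CPM. In S3-like cells Fos was at 257, 172, 262 and 122 CPM, with the aged KAP library lowest in both classes. Smooth muscle-like, Mes-like, Endo-like and gEC-like cells were above PC-like cells in both young libraries. Smooth muscle-like cells were highest there, at 5855 and 5777 CPM. Fosb had its highest median in PC-like cells as well, at 889, 1059.6, 834 and 649 CPM. Above these were gEC-like cells in young, at 931 CPM, and ICB-like cells in aged and aged KAP, at 1287 and 707 CPM. Fosb was lowest in unsegmented PT-like cells, at 60.2, 46.5, 93.4 and 36.6 CPM. Fosl2, the Fos gene that is induced later and stays longer, was low throughout. Its highest median was in myeloid-like cells, at 117, 174, 143 and 156 CPM, where the aged KAP library was not the lowest. Mes-like cells were higher in young, at 123 CPM. In DCT-like cells Fosl2 rested on 21, 30, 34 and 11 UMIs.

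Of the Jun genes, Jun was highest in gEC-like cells, at 4509, 5518, 4180.3 and 3134 CPM. In S3-like cells it was at 450.4, 463, 678 and 500.1 CPM, so there the aged KAP library lay between the others. Junb had its highest median in gEC-like cells, at 3863, 4664, 2492 and 1384 CPM, where both aged libraries were below both young ones. Mes-like cells were higher in both young libraries, at 4232 and 5646 CPM. Endo-like cells were higher in aged, at 2615 CPM, and PC-like cells in aged KAP, at 1869 CPM. Jund, which is expressed in resting cells, varied least over classes, with 6.99-fold between Podo-like and unsegmented PT-like cells. The other members spanned 16.1-fold (Fosb) to 223-fold (Atf3).

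Atf3 had its highest median in myeloid-like cells, at 1672, 1881, 923 and 470.3 CPM, so the aged libraries were both below the young ones. In ICB-like cells the order differed, at 754, 1202, 2299 and 1248 CPM, with the aged library highest. In both aged libraries that was above the myeloid-like level. Egr1 had its highest median in gEC-like cells, at 3507, 4232, 2423 and 1119 CPM. In the aged KAP library PC-like cells were higher, at 1777 CPM. Egr1 was lowest in S3-like cells, at 132, 99.8, 105 and 51.1 CPM. Ier2 had its highest median in Endo-like cells, at 1410.4, 1809, 1385 and 1149 CPM. Levels in gEC-like cells were higher in both young libraries, at 1553 and 2101 CPM. Btg2 had its highest median in PC-like cells, at 2462, 2723, 3139.9 and 2374 CPM. There the aged library was highest and the aged KAP library lowest. Above PC-like cells were Mes-like and gEC-like cells in young KAP, at 3993 and 3262 CPM, and ICB-like cells in aged, at 3915 CPM.

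The aged KAP and the aged library were compared to ask what differs in old kidneys with Cre in the S3 segment. In the aged KAP library the summed level was lower in 15 of 16 classes, with a median log2 ratio of -0.62, and it was lower far outside the S3 segment. In Mes-like cells it was 2737 against 9446 CPM (log2 ratio -1.79, interval -1.85 to -1.72), in Podo-like cells 5226 against 16057 CPM (-1.62, interval -1.68 to -1.56) and in gEC-like cells 10584 against 18200.4 CPM (-0.78, interval -0.80 to -0.76). In S3-like cells it was 1511 against 2115 CPM (-0.49, interval -0.51 to -0.47). Smooth muscle-like cells were the exception, at 9757 against 7905 CPM (0.30, interval 0.23 to 0.38), from 47 and 36 cells. Over single members and classes, 143 of 160 ratios were lower in the aged KAP library, and 135 had an interval wholly below 0. The other 17 were higher, apart from Fosl2 in B cell-like cells, which had no UMI in the aged KAP library and was left unresolved at this depth. The median of all genes in a class ran from -0.11 in ICB-like to 0.16 in B cell-like cells. The share of all gene-by-class ratios that were lower is not given here. With many counts an interval can leave out 0 at a small ratio.

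By median over the 16 classes, the log2 ratio in that comparison was -0.97 for Fos, -0.85 for Fosb and -0.49 for Fosl2. Among the Jun genes it was -0.43 for Jun, -0.73 for Junb and -0.39 for Jund. It was -0.89 for Egr1, -1.20 for Atf3, -0.32 for Ier2 and -0.55 for Btg2, against -0.03 for the median of all genes tested. Each member was lower in 12 (Fosl2) to 15 classes, and Fosl2 in B cell-like cells, at 0 against 6 UMIs, is not among its 12 because its sign there is set by the floor of 3 counts. Ratios in Podo-like cells were wide for several members, with Atf3 at 22.2 against 706 CPM (-4.99, interval -5.91 to -4.20, from 13 UMIs in the aged KAP library), Ier2 at 114 against 846 CPM (-2.89) and Fosb at 109 against 709 CPM (-2.70). Jund in the same cells was at 1361 against 1986 CPM (-0.54).

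A strict rule asked for 1 sign in every class and a median past a fold of 1.5, among genes with at least 10 CPM in every class, a filter that 8 of the 10 members passed (Atf3 and Fosl2 did not). By this rule 0 of the 8 were lower in the aged KAP library against the aged library, where 0.095% of 4210 genes were. Smooth muscle-like cells broke the shared sign for each of the 8, though the intervals of Fos and Fosb there included 0. Jund was also higher in LOH-like (0.12) and DCT-like cells (0.09). In B cell-like cells Jun (0.16) and Ier2 (0.03) were higher too, with intervals that included 0. With the median alone, a rule added after the data were seen, 4 of the 8 (Fos, Fosb, Junb and Egr1) were past a fold of 1.5 lower, beside 0.38% of genes. The other genes among those 16 included Klf4 and Klf6, which encode further immediate early factors, and Bhlhe40, which encodes a circadian repressor and was lower in 16 of 16 classes.

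Within single classes the members could be set against all genes of that class. Past a fold of 1.5 lower in the aged KAP library were 9 of 10 members in Podo-like cells (13.3% of genes), 10 of 10 in Mes-like cells (9.14%), 9 of 10 in ICB-like cells (12.3%) and 8 of 10 in gEC-like cells (3.75%). The same held for 8 of the 9 members measured in CNT-like cells (1.99% of genes) and 7 of the 8 in unsegmented PT-like cells (2.35%). With all 10 members counted at any level, fewer were past that fold in the other classes. They were 5 in S3-like (1.52% of genes), DCT-like (1.33%), ICA-like (16.5%) and B cell-like cells (28.1%). Myeloid-like cells had 4 (11.4%), and S1/S2-like (1.14%) and Endo-like cells (7.71%) had 3. LOH-like cells had 2 (1.29%) and PC-like cells 1 (3.75%). These shares are of genes measured in the class, whereas the counts include low members, such as Fosl2 in S3-like cells at 4.84 against 7.47 CPM. Past a fold of 1.5 higher in smooth muscle-like cells were 4 of 10, Egr1, Atf3, Ier2 and Fosl2, where 17.5% of genes were. Relative to the median of all genes in the class, the summed ratio was -1.82 in Mes-like, -1.61 in Podo-like and -0.49 in S3-like cells.

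**Figure D2:**
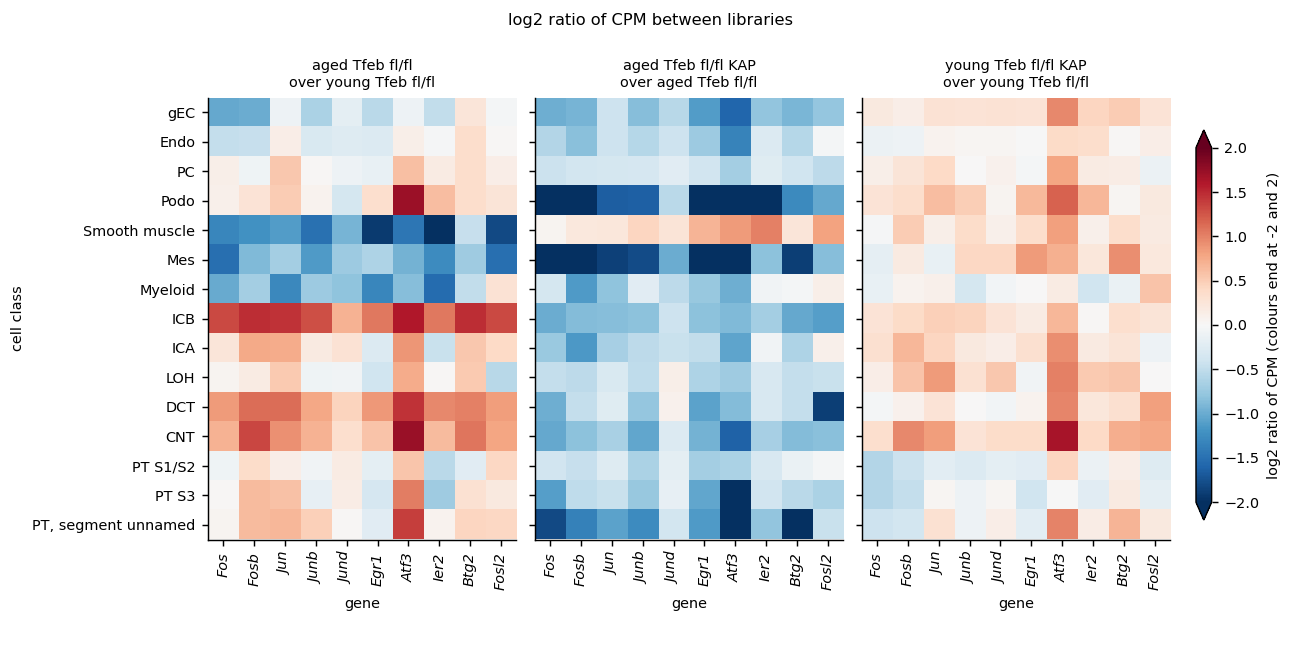
Log2 ratio of CPM between libraries for each member (columns) in each of 15 classes (rows), for aged against young (left), aged KAP against aged (middle) and young KAP against young (right). Blue is lower and red is higher in the library named first, and colours end at -2 and 2. The middle panel is blue outside the smooth muscle row for most members, and the left panel is red in the ICB, DCT and CNT rows and blue in the smooth muscle, Mes and myeloid rows, apart from Fosl2 in the myeloid row.

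The young KAP and the young library were compared to ask the same at 6 weeks. Here 121 of 160 single ratios were higher, where the median of all genes ran from -0.05 in LOH-like to 0.05 in ICA-like cells. The share of all gene-by-class ratios that were higher is not given here. The summed level was higher in 13 of 16 classes, with a smaller median log2 ratio of 0.18. It was 5037 against 3544 CPM in CNT-like cells (log2 ratio 0.51), 7442 against 5656 CPM in LOH-like cells (0.40) and 30075 against 23985 CPM in gEC-like cells (0.33). It was lower in S1/S2-like cells, at 3046 against 3723 CPM (-0.29), in S3-like cells, at 1649 against 1773 CPM (-0.10), and in myeloid-like cells, at 16465 against 17448 CPM (-0.08). Atf3 stood apart, with a median of 0.80 and 15 of 16 classes higher, and its level in gEC-like cells was 1726 against 891 CPM. The medians of the others lay between -0.03 (Fos) and 0.30 (Jun). By the strict rule 0 of 8 members were lower, beside 0.0896% of 4464 genes, and 0 of 8 were higher, beside 0.202%.

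The aged and the young library were compared to ask what differs with age. The members parted by class: the summed level was higher in the aged library in 10 of 15 classes and lower in 5, with a median log2 ratio of 0.14. In ICB-like cells it was 22319.7 against 9066 CPM (1.30), in DCT-like cells 7401 against 4002 CPM (0.89) and in CNT-like cells 6027 against 3544 CPM (0.77). It was lower in smooth muscle-like cells, at 7905 against 19104 CPM (-1.27), in Mes-like cells, at 9446 against 19195 CPM (-1.02), and in myeloid-like cells, at 9366 against 17448 CPM (-0.90). PC-like cells were at 19500.1 against 17691 CPM (0.14), which equals the 0.14 of the median of all genes in those cells.

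Past a fold of 1.5 higher in the aged library were 10 of 10 members in ICB-like cells, where 19.8% of genes were, 8 of 9 in DCT-like cells (10.2%) and 7 of 9 in CNT-like cells (10.1%). Past that fold lower were 10 of 10 in Mes-like cells (15.2%), 9 of 10 in smooth muscle-like cells (16.1%) and 8 of 10 in myeloid-like cells (12.5%). Over classes, 0 of 8 members had 1 sign. So by the strict rule, which also asks for a median past a fold of 1.5, 0 of 8 were lower, beside 0.0665% of 4510 genes, and 0 of 8 were higher, beside 0.554%. Median log2 ratios ran from -0.27 for Egr1 to 0.74 for Atf3, and the SD of a member's ratio over classes was 0.47 (Jund) to 1.02 (Atf3), against a median of 0.29 over all genes tested. In the proximal tubule-like classes the summed ratio was 0.06 in S1/S2-like, 0.25 in S3-like and 0.23 in unsegmented PT-like cells. The median of all genes in these classes was 0.07, 0.0048 and 0.05. The S1/S2-like sign turned to -0.02 with median-of-ratios scaling. Single members differed more in S3-like cells, with Atf3 at 1.02, Fosb at 0.64, Jun at 0.59 and Ier2 at -0.71. Of all 10 members there, counted at any level, 3 were past a fold of 1.5 higher (3.61% of genes measured) and 1 lower (2.53%).

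In the aged KAP library against the young KAP library, each of which also enters a comparison above, the summed level was lower in 13 of 16 classes with a median log2 ratio of -0.66. It was 2737 against 24518 CPM in Mes-like cells (-3.16), 10584 against 30075 CPM in gEC-like cells (-1.51), and 4873 against 4339 CPM in DCT-like cells (0.17). By the strict rule 0 of 8 members were lower, beside 0.212% of 4243 genes. By the median alone 5 of 8 (Fos, Fosb, Junb, Egr1 and Ier2) were past a fold of 1.5 lower, beside 0.825%. The median ratio was -1.25 for Atf3, -0.99 for Fosb and -0.88 for Fos, and nearest to 0 for Fosl2 at -0.25.

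How far the difference between libraries was shared over classes was also read from the spread of log2(CPM + 10) over 15 classes and 4 libraries. Cell class took 68.3% (Fosb) to 91.8% (Btg2) of a member's sum of squares, and library took 1.48% (Fosl2) to 11.0% (Fosb), against a median of 2.52% over 4559 genes. Of the spread left within classes, library took 54.3% for Egr1, 46.5% for Atf3, 46.0% for Fos and 44.3% for Junb, and 17.4% for Fosl2, against a median of 22.0%. Only Egr1 of the 8 members that passed the filter was over 50%, beside 11.4% of genes. The offset of the aged KAP library was below 0 for all 10, from -0.24 (Fosl2) to -0.83 (Atf3). The share of all genes with an offset below 0 in that library is not given here. The other offsets lay between -0.11 and 0.60, but the offsets of a gene sum to 0 over the 4 libraries, so this is no separate result.

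**Figure D3:**
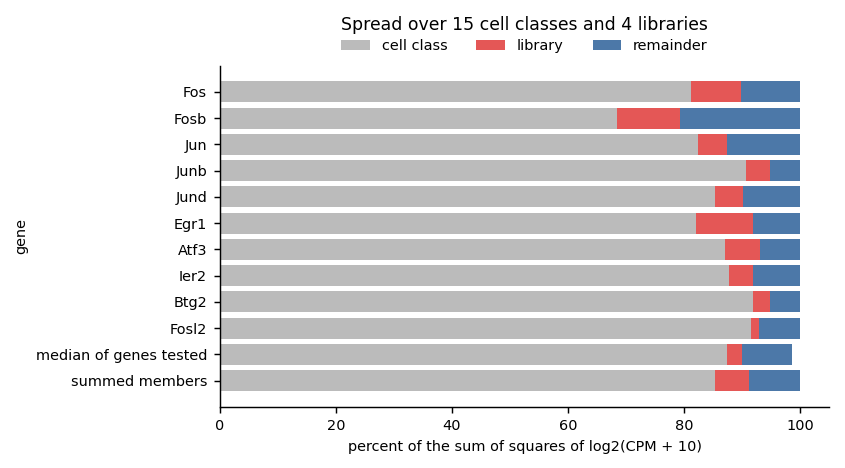
Share of the sum of squares of log2(CPM + 10), in percent, that falls to cell class (grey), library (red) and the remainder (blue), for each member, for the median of the 4559 genes tested and for the summed members. The red part is 11.0% for Fosb and 9.75% for Egr1, against 2.52% for the median gene; medians are taken for each part, so that bar need not reach 100%.

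The members were also counted cell by cell after each cell was thinned to 2000 UMIs. The median cell held 40.5, 53, 31 and 14 UMIs of the 10 genes in gEC-like cells, 26.5, 35, 7 and 3 in Mes-like cells and 25, 32, 32 and 14 in PC-like cells. In Podo-like cells the median was 15.5, 21, 12.5 and 6 UMIs. The 90th percentile of cells was at 67.1, 78.6, 41.8 and 9 UMIs in Mes-like and at 90.4, 107, 75 and 46 UMIs in gEC-like cells, whereas in PC-like cells it was at 60, 64, 71 and 60 UMIs and so was not lower in the aged KAP than in the young library. ICB-like cells were at 6, 13, 46 and 17 UMIs, with the aged library highest. In smooth muscle-like cells the medians were 22, 26, 4.5 and 4 UMIs, so the thinned median did not show the higher level of the aged KAP library.

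**Figure D4:**
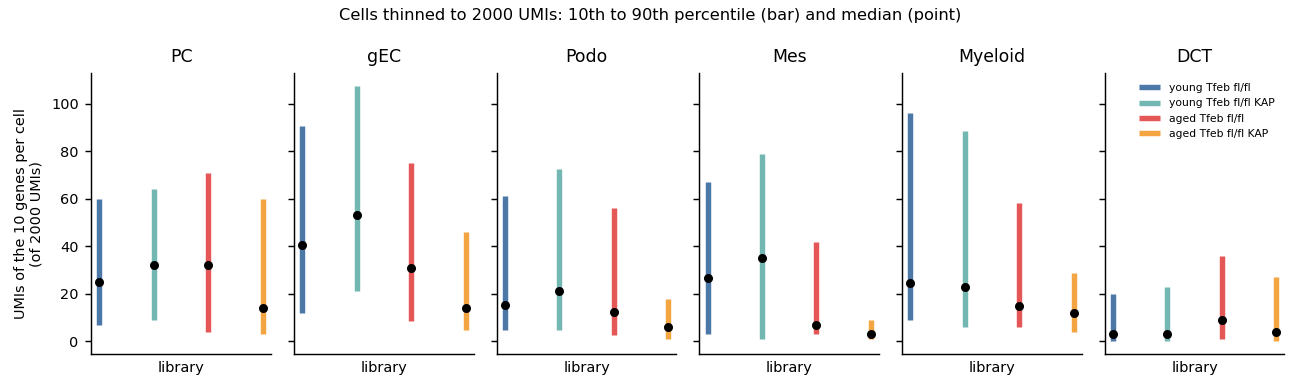
UMIs of the 10 genes per cell after thinning each cell to 2000 UMIs, in 6 classes, with the 10th to 90th percentile of cells as a bar and the median as a point, for the 4 libraries. In Mes the medians are 26.5, 35, 7 and 3, and in DCT 3, 3, 9 and 4.

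Within the proximal tubule the 10 genes were concentrated in few clusters. The S1/S2-like cluster led by Snhg11, Slc5a12 and Rcan1 held 9688, 8026, 8618 and 7462 CPM, with a median mitochondrial share of 11.2% to 12.6%, whereas the S1/S2-like cluster led by Spp2 and Slc5a2 held 636, 634, 648 and 591 CPM, at 29.3% to 33.0%. Among S3-like cells, the cluster led by Gm45792 and Osgin1 held 6052, 5570.1, 7921 and 5991 CPM, and the cluster led by Napsa and Kap held 394, 337, 294 and 245 CPM. The first of each pair also had Errfi1, which is itself an early-induced gene, among its 10 leading genes. Both kinds were found in every library: the high S3-like cluster had 264, 206, 258 and 284 cells.

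The level was lower where the mitochondrial share was higher. On counts without mitochondrial genes, S1/S2-like cells with 0% to 10% mitochondrial counts held 9548, 8102, 10513 and 9156 CPM, and those with 30% to 50% held 2690.2, 2340.0, 2483 and 1324 CPM. In S3-like cells the same bins held 4136, 6117, 6800.3 and 7587 CPM and 1444, 1214, 1008 and 619 CPM. The aged KAP library was below the aged library in every bin of S1/S2-like and DCT-like cells, but above it in the lowest bin of S3-like and LOH-like cells. The median mitochondrial share of the libraries was 20.3%, 19.6%, 18.7% and 16.7%, and its part in the ratios was not tested beyond the limit of 20% used as an alternative.

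**Figure D5:**
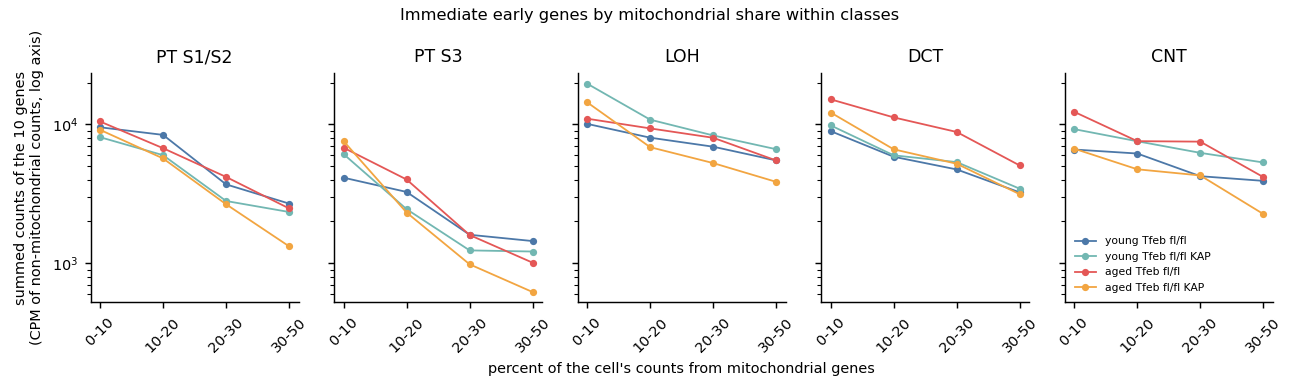
Summed level of the 10 genes, in CPM of non-mitochondrial counts on a log axis, against the share of a cell's counts from mitochondrial genes (bins of percent), in 5 tubular classes and 4 libraries (lines). Lines go down from left to right, in S1/S2-like cells of aged KAP from 9156 to 1324 CPM.

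The deposited counts had been corrected by the authors for free RNA, and this touched the members unequally. Entries stored as an explicit 0, which such a correction can leave, were 2.90%, 12.5%, 9.41% and 12.9% of all entries. For the members they were 16.5%, 45.3%, 32.5% and 48.9% in unsegmented PT-like cells and 0.556%, 1.24%, 1.89% and 4.09% in gEC-like cells. Atf3 in unsegmented PT-like cells was at 53, 98, 155 and 0 UMIs, with 152 of 152 entries at 0 in the aged KAP library. In the aged library 202 entries, or 72.1%, were at 0 as well. A floor of 3 counts puts the aged KAP level 38.8-fold below the aged one. That holds for the corrected counts only and is no lower bound for the counts before correction. With 1 UMI added back for each such entry, an alternative chosen after the data were seen, the median log2 ratio of the summed level between the aged KAP and the aged library was -0.62.

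Free RNA that remained was gauged by markers of other cells. Slc34a1, a phosphate transporter of the proximal tubule, had a UMI in 7.20%, 2.95%, 24.8% and 5.96% of LOH-like cells and in 7.81%, 6.25%, 36.5% and 22.3% of Mes-like cells, highest in the aged library. Umod, a gene of the thick ascending limb, had a UMI in 24.0%, 1.93%, 6.56% and 9.53% of S3-like cells. Fos had a UMI in 30.8%, 16.5%, 24.6% and 16.3% of S3-like cells thinned to 2000 UMIs and in 69.2%, 38.7%, 60.3% and 36.3% of unthinned ones. Of the Fos entries of S3-like cells, 17.1%, 55.4%, 35.1% and 58.6% were stored as an explicit 0, most in the KAP libraries. So these shares depend on the correction for free RNA and cannot be read as shares of cells that held Fos. The count of Jun UMIs per Fos UMI was not the same over classes, from 0.216 in Mes-like to 1.75 in S3-like cells of the young library and from 0.257 in myeloid-like to 4.09 in S3-like cells of the aged KAP library. The part of free RNA in the ratios between libraries was not tested otherwise.

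The genes whose pattern was most like the mean of the members were sought among 7527 genes, by Pearson's r over 60 points of class and library, with each gene centred on its class. The points share libraries, depth and dissociation, so r is a description. The highest were Ppp1r15a (0.95), which relieves the translation block of the stress response, Socs3 (0.93), a brake on cytokine signalling, Nr4a1 (0.90), an immediate early nuclear receptor, Tiparp (0.90) and Csrnp1 (0.89). Irf1 (0.86), Coq10b (0.85), Atf4 (0.85), Maff (0.84) and Ccnl1 (0.84) followed. Of the 10, Socs3 and Irf1 are in the list of early NF-kB targets, Ppp1r15a, Nr4a1 and Csrnp1 are in the list of other immediate early genes, and Atf4 and Maff are in that of other AP-1 family genes.

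Other gene lists were read in the same way, by the median log2 ratio over classes of each gene measured. In the aged KAP against the aged library, 4747 of 7843 genes were lower, with a median of -0.03. Of 36 other immediate early genes 30 were lower, with a median of -0.42, against -0.64 for the 10 members. Egr2, the sister of Egr1, was at -0.54 and Klf2, a factor induced by flow in endothelium, at -0.46, while Klf10 (0.20) and Sgk1 (0.53), a kinase induced by aldosterone, were higher. Of the early NF-kB targets all 6 measured were lower, with a median of -0.81, among them Irf1 (-1.07), Socs3 (-0.98), Nfkbiz (-0.81) and Icam1 (-0.80).

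Other AP-1 family genes, genes in the upstream list and genes of general function differed less in that comparison. Of 8 other AP-1 family genes 7 were lower, with a median of -0.24, with Atf4 at -0.25, Mafk at -0.23 and Maf at -0.37. Of 14 genes in the list of upstream signalling with SRF or CREB factors, 12 were lower, with a median of -0.10. Among them were Map2k1 (-0.0027), Elk3 (-0.11), Mapk3 (-0.08) and Nab2 (-0.33), which is in that list though it is a corepressor of Egr1. Housekeeping genes had a median of -0.05, with Gapdh at 0.12, Eef2 at -0.18, Hprt at -0.03 and Tbp at -0.06. Of 8 tubular injury genes, 3 were measured in at least 50% of classes, with Spp1 at -0.12, Cryab at -0.07 and Clu at 0.10.

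In proximal tubule-like cells the 8 injury genes together were lower in the aged KAP library, as the members were. Their summed level was 86.2, 28.4, 67.6 and 15.4 CPM in S3-like cells, 221, 93.5, 107 and 17.5 CPM in unsegmented PT-like cells and 1892, 1439.9, 804 and 449 CPM in S1/S2-like cells. The young KAP library was also below the young library in each of these classes. In LOH-like and DCT-like cells they were at 4195 against 4121 CPM and 3247 against 3084 CPM in the aged and aged KAP libraries. Only in ICA-like and ICB-like cells were they higher in the aged KAP library, at 1606 against 2876 CPM and 3462 against 3760 CPM in the same order. The members were lower in the aged KAP library in both. Their part in the ratios of the members was not tested.

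Heat shock genes, which encode chaperones, moved with the members in some comparisons. All 13 were higher in the young KAP against the young library, with a median of 0.45, and all 13 in the aged against the young library, with a median of 0.28. In the former comparison the median of all genes ran from -0.05 in LOH-like to 0.05 in ICA-like cells. In the latter it was above 0 in every class, from 0.0048 in S3-like to 0.19 in ICA-like cells. The share of all genes that were higher is not given here for either. All 13 were lower in the aged KAP against the aged library, with a median of -0.22, and 12 of 13 in the aged KAP against the young KAP library, with a median of -0.35. In the last comparison the median of all genes ran from -0.05 in unsegmented PT-like to 0.27 in B cell-like cells. The inducible Hspa1a was at 0.07 in aged against young and at -0.24 in aged KAP against aged, and its pair Hspa1b at 0.63 and -0.54. Hspa8 was at 0.51 and -0.22, and Hspe1, a mitochondrial chaperone, at 0.01 and -0.01. The 2 Hspa1 genes are near-identical, so reads can be split between them.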

How the data were processed

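Single-cell 3′ RNA libraries of renal cortex, 1 library for each of 4 groups, were read from the matrices the authors deposited, which hold counts of unique molecular identifiers. Per the labels the submitters used Cell Ranger 6.0.0, Seurat 4.4.0 and build mm10, and per the study's methods the counts were corrected for free RNA before deposit. Libraries held 125729484 to 194747936 counts. The members and gene lists were chosen with earlier results of these data known.

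Cells with at least 1000 detected genes and at most 50% mitochondrial counts were kept, 2216 likely doublets were removed, and cells were integrated and clustered with scanpy 1.11.5, leidenalg 0.10.2 and scikit-learn 1.9.0 (Python 3.11.15, numpy 2.4.6, pandas 2.3.3). A cluster was named from fixed markers where at least 3 were detected, and 1432 cells stayed unnamed. Counts were summed per class and library and scaled to a class total of 1000000 (CPM). A ratio was taken in classes with at least 20 cells in both libraries. With 1 library per group no test was possible, so levels carry exact Poisson and ratios exact binomial 95% intervals (scipy 1.17.1), which cover counting error only, and a count of 0 was set to a floor of 3 counts. Scripts were tested on simulated data.

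Named were all 10 members, the 2 highest and 2 lowest genes of each other list by median log2 ratio of aged against young Tfeb fl/fl among genes with at least 10 CPM in at least 50% of classes, and the 10 genes most like the members. A gene that this rule names is not reported here. The lists were other immediate early genes, heat shock genes, early NF-kB targets, other AP-1 family genes, upstream signalling with SRF or CREB factors, housekeeping genes and tubular injury genes. Genes named outside this rule (Klf4, Klf6, Bhlhe40 and those in the closing section) were chosen after their values were seen. Alternatives changed the mitochondrial limit, doublets, clustering, depth, filters, averaging and scaling. Upstream stretches of Egr1 and Ier2 were not used here.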

Additional observations from a re-analysis of the deposited data

Results flagged for a closer look

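The ratio of Tfeb fl/fl KAP to Tfeb fl/fl for the summed members was flagged as lying on opposite sides of 0 in young and aged mice in 10 of 15 classes. In these it was higher in the young and lower in the aged KAP library. Unsegmented PT-like cells also changed sign, from 0.03 in young to -1.02 in aged mice, but were not among the 10 flagged. The aged minus the young log2 ratio was -2.14 in Mes-like, -1.96 in Podo-like, -1.11 in gEC-like and -0.58 in Endo-like cells. In tubular classes it was -1.34 in CNT-like, -1.20 in ICB-like, -1.01 in ICA-like, -0.83 in LOH-like, -0.72 in DCT-like and -0.53 in PC-like cells. The pair of ratios shares no library, but each rests on 1 library per group, and the difference was not tested.

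Barcodes left out for over 50% mitochondrial counts still held the members, at a summed level of 931, 936, 654 and 512 CPM in the young, young KAP, aged and aged KAP libraries, above the limit that a count of 0 allows. In the young library that level was 2671 CPM of the non-mitochondrial counts.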

How the results depend on the processing

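The summed ratio of aged Tfeb fl/fl KAP to aged Tfeb fl/fl stayed between -0.63 and -0.52 over 13 alternatives. No paired analysis was possible because each group has 1 library, and for the same reason no replicate could be left out. For aged against young Tfeb fl/fl, the summed log2 ratio of 0.14 became 0.0070 with at most 20% mitochondrial counts, 0.12 at clustering resolution 0.5, 0.22 with stress genes allowed among variable genes, 0.17 without integration, 0.075 as a mean over cells, 0.041 with thinned cells, 0.11 without mitochondrial genes and 0.11 with median-of-ratios scaling. For young KAP against young Tfeb fl/fl, 0.18 became 0.12 with the 20% limit, 0.22 at resolution 0.5, 0.22 as a mean over cells, 0.21 with thinned cells, 0.16 without mitochondrial genes, 0.15 with at least 100 cells, 0.26 as the median of the members and 0.16 with UMIs added back. For aged KAP against young KAP, -0.66 became -0.60 with stress genes allowed, -0.59 as a mean over cells, -0.60 with thinned cells and -0.58 with at least 100 cells. Fos in aged against young Tfeb fl/fl turned from 0.06 to -0.18 with the 20% limit, -0.0050 with more doublets removed, -0.0028 at resolution 0.5, -0.13 as a mean over cells and -0.21 with thinned cells, and Junb from -0.08 to 0.030 with stress genes allowed. The share of all genes called by the strict rule moved to 0.223% lower and 0.156% higher (aged against young) and 0.331% lower (aged KAP against young KAP) with median-of-ratios scaling. With a filter of 50 CPM it moved to 0.189% lower (aged KAP against aged), 0.440% higher (young KAP against young) and 0% higher (aged KAP against young KAP, 0.0236% before). The cause was not tested. The alternative with UMIs added back was chosen after seeing the data. Depth limits Atf3 and Fosl2 most.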

Other observations

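Genes chosen after their values were seen showed other patterns over classes. Cirbp, which encodes a cold-inducible RNA-binding protein, was lower in 15 of 15 classes in aged against young Tfeb fl/fl (median log2 ratio -0.63) and in 16 of 16 in young KAP against young Tfeb fl/fl (-0.64), and higher in 15 of 16 in aged KAP against aged Tfeb fl/fl (0.47). The heat shock gene Hsph1 had the opposite sign in each, at 0.28, 0.72 and -0.57. Chaperones of the endoplasmic reticulum were higher in the young KAP library against the young Tfeb fl/fl library, with Hspa5 at 0.79 and Manf at 0.74, each in 16 of 16 classes. Against the young KAP library the aged KAP library was lower in Manf in 16 of 16 classes (-1.27) and in Hspa5 in 15 of 16 (-0.82).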
